A study of Mus musculus with 12 samples.

Results

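The levels of 10 genes for enzymes that modify drugs, hormones and other small molecules were followed in mouse adipose tissue: Cyp2e1, Fmo1 and Fmo2 (oxidation), Ces1d, Ces1f and Ephx1 (hydrolysis), and Sult1e1, Sult1a1, Gstm1 and Inmt (conjugation). These 10 of the 27179 genes in the deposited tables were chosen by name with results of the same libraries known, and selected on their lower levels after burn in aged mice, where Cyp2e1, Inmt and Sult1e1 had the largest differences. The tissue came from wild-type (WT) C57BL/6J mice at day 7, with 3 libraries in each of 4 groups: untreated adult mice (Adult control), adult mice with a scald burn (Adult burn), untreated aged mice (Aged control) and aged mice with a scald burn (Aged burn). Per the labels' protocols, the back was held in a bath at 98 °C for 10 s, and in adult mice the belly for a further 2 s, so that the burn covered 30% of the body surface in adults and 20% in aged mice. Buprenorphine was used against pain. The sources used here do not give the fat depot, the sex or the ages in weeks, and do not say whether each library is a mouse of its own, so p-values measure the spread between libraries.

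Enzymes of this kind work in steps. Oxidation or hydrolysis exposes a reactive group on a molecule, another enzyme then attaches sulfate, glutathione, glucuronic acid or a methyl group, and transporters carry the product out of the cell. They are best known from the liver, but fat cells also express a set of them, and there some act on the tissue's own molecules: Ces1d splits stored triacylglycerol, Sult1e1 sulfates oestrogens, and Cyp2e1 oxidises ethanol, acetone and fatty acids.

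The stretches upstream of the 3 genes with the largest differences are shown because these genes differ in kind and position, and a reader can see what their starts do and do not share. They come from RefSeq's promoter windows (GRCm38.p6, 250 bases before to 50 after each start), read 5′ to 3′ on the gene's own strand and cut where an annotated exon of the gene begins. The second Cyp2e1 stretch is an exception: it lies past the cut, within an annotated exon of the gene, and gives the 30 bases around its TATAAA. Capitals mark TATAAA, the letters of a TATA box.
Sult1e1, chr5:87591612-87591861, minus strand: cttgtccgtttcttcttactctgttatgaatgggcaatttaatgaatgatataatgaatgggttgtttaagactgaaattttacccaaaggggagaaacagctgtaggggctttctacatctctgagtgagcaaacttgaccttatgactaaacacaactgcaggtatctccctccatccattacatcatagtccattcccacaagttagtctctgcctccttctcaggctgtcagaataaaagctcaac
Inmt, chr6:55175044-55175240, minus strand: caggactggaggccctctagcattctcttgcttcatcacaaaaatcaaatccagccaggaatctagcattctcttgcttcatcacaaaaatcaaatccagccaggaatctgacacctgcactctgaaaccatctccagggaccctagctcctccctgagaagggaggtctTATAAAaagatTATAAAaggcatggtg
Cyp2e1, chr7:140763569-140763738, plus strand: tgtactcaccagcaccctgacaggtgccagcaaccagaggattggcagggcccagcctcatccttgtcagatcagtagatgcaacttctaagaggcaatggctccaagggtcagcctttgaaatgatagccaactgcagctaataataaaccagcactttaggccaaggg
Cyp2e1, chr7:140763776-140763805, plus strand: tcaacgacacgtTATAAAatccttgtttct

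The table held 9 windows for 7 of the 10 genes, with none for Fmo1, Ces1d or Ces1f. TATAAA, searched on both strands, occurred in 4 of the 9 windows, against 13.6% of all 32851 windows of 300 bases. Counted from the RefSeq start, it began at -31 in Cyp2e1, at -80 and -69 in Inmt (not overlapping), at -30 in one of the Gstm1 windows and at -214 in Ephx1. Sult1e1 and Sult1a1 had none. The letters TTCNNNGAA, the core bound by STAT factors, occurred in 1 window, of Fmo2, beginning 12 bases after the start (all windows: 8.3%). The other 6 motifs searched were in none of the 9: the nuclear receptor direct repeats DR1 (all windows: 0.0396%) and DR4 (0.0152%), the palindromic glucocorticoid receptor element (0.00913%), TGACNNNGC (12.4%) of NRF2, TNGCGTG (5.07%) of the aryl hydrocarbon receptor and CACGTG (7.15%), the E-box. The windows of Inmt and Sult1a1 held 0 CpG dinucleotides and that of Sult1e1 held 1, against a median of 7 over all windows. The Cyp2e1 window held 4, and GC content was 40% for Sult1e1, 47.7% for Inmt and 49.7% for Cyp2e1 against a median of 52.7%. These matches describe letters in the windows and are not measured binding sites.

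Libraries held 25231506 to 46531070 counts, of which the 10 genes took 0.0573% (Aged burn 2) to 0.762% (Adult control 3). Levels below are CPM (counts relative to the library total), scaled by TMM, a method that makes libraries comparable, over the 12 libraries. The adipocyte markers Adipoq and Plin1 were detected in every library, at 727 to 4180 CPM and 335 to 2710 CPM, and those of liver were at or near 0 apart from Alb: of 15 hepatocyte markers Fgb, Tat, Cyp3a11 and Cyp2c29 were at 0 throughout, Apob did not exceed 0.0505 CPM and Alb lay between 10.7 and 57.8 CPM. Libraries stood apart in several groups. Adult control 1 carried lymphocyte transcripts (10 B cell markers summed to 1800 CPM, against 3.95 to 41.3 elsewhere) and had the lowest adipocyte marker sum outside Aged burn, 48900 CPM against 94100 to 119000. Adult burn 1 carried skeletal muscle transcripts (15 markers, 4120 CPM against 51 to 552). Aged burn 2 carried neutrophil transcripts (12 markers, 1970 CPM against 20.9 to 209) and the lowest adipocyte marker sum, 21200 CPM. Adult libraries are in one deposited table and aged libraries in the other, so age, table and, after burn, burn size cannot be told apart.

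Among the oxidising enzymes, Cyp2e1 was the most abundant and the most variable gene. Cyp2e1 is the cytochrome P450 of ethanol and acetone and lies on chromosome 7 from 140763819 to 140774990 (GRCm38, plus strand, 9 exons). It was at 821, 1970 and 5140 CPM in Adult control, 2440, 3990 and 1980 CPM in Adult burn, 1200, 2370 and 499 CPM in Aged control and 160, 143 and 159 CPM in Aged burn. Both adult groups and Aged control overlapped one another, and all 3 Aged burn libraries lay below every other library. The group means were 2640 ± 2230, 2800 ± 1050, 1350 ± 944 and 154 ± 9.8 CPM (SD, n = 3), so the group with the lowest mean also had the narrowest spread.

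Fmo1 and Fmo2 encode flavin monooxygenases, which add oxygen to nitrogen and sulfur atoms of drugs, and lie 7.71 kb apart on chromosome 1 (162829561 to 162866610 and 162874317 to 162898758, both on the minus strand with 9 exons). Fmo1 was at 146, 282 and 479 CPM in Adult control, 377, 401 and 361 CPM in Adult burn, 256, 289 and 255 CPM in Aged control and 115, 42.5 and 141 CPM in Aged burn. Every Aged burn value was below every other library, and the adult controls spanned the burned adults. Fmo2 was at 6.9, 13 and 13.4 CPM in Adult control, 17.3, 14.5 and 11 CPM in Adult burn, 29.2, 27.7 and 36.3 CPM in Aged control and 20.5, 12.4 and 29.7 CPM in Aged burn. The neighbouring genes thus had different patterns: Fmo2 was higher in all 3 aged controls than in any adult library, and its aged groups overlapped.

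The hydrolases split into the carboxylesterases, which cleave esters, and Ephx1, the microsomal epoxide hydrolase, which opens epoxides into diols. Ces1d and Ces1f lie 58.4 kb apart on chromosome 8 (93166072 to 93197804 and 93256236 to 93279766, minus strand, 14 exons each). Ces1d was at 771, 1720 and 1650 CPM in Adult control, 1720, 2260 and 1790 CPM in Adult burn, 1740, 2060 and 1660 CPM in Aged control and 832, 155 and 763 CPM in Aged burn. Only Adult control 1 reached into the range of the burned aged libraries. Ces1f was at 143, 325 and 356 CPM, 308, 429 and 312 CPM, 290, 410 and 189 CPM, and 117, 45.9 and 91.3 CPM in the same order of groups. All 3 Aged burn libraries were below every other library for Ces1f. Ephx1 (chromosome 1, 180989556 to 181017569, minus strand, 9 exons) was at 60.5, 28.8 and 21.9 CPM, 28.2, 23 and 20.5 CPM, 50.4, 48 and 55.9 CPM, and 47.6, 19.2 and 56.7 CPM. Its highest value was in Adult control 1, the library with lymphocyte transcripts, and among burned aged libraries Aged burn 2 stood far below the aged controls, with Aged burn 1 just under and Aged burn 3 above them.

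Of the conjugating enzymes, Sult1e1, the oestrogen sulfotransferase, had the most uniform low level after burn in aged mice. It lies on chromosome 5 from 87575968 to 87591611 (minus strand, 8 exons) and was at 8.6, 21.3 and 22.1 CPM in Adult control, 15.8, 26.7 and 7.23 CPM in Adult burn, 33.1, 17.3 and 11.7 CPM in Aged control and 3.89, 3.96 and 3.35 CPM in Aged burn. No other library was as low as the 3 of Aged burn. Sult1a1, the phenol sulfotransferase (chromosome 7, 126672865 to 126690443, minus strand, 7 exons), was at 84.2, 197 and 153 CPM, 147, 191 and 147 CPM, 140, 183 and 154 CPM, and 86.2, 48.1 and 116 CPM. Adult control 1 was the only library outside Aged burn with a Sult1a1 level in that group's range. Sult1a1 overlaps Gm6939 and Slx1b, so its counts may hold reads of theirs if strand was not used.

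Gstm1, a glutathione S-transferase of the mu class (chromosome 3, 108012250 to 108017973, minus strand, 8 exons), was at 153, 230 and 180 CPM in Adult control, 222, 229 and 164 CPM in Adult burn, 304, 309 and 310 CPM in Aged control and 189, 71 and 206 CPM in Aged burn. The aged controls lay close together and exceeded all other libraries. Of its transcript stretches of 50 bases, 18.9% also occur in other transcripts, mostly of the pseudogene Gstm2-ps1, so its level is less certain than that of Inmt, Sult1e1 or Fmo2, which share 0. Inmt, which methylates tryptamine and related amines (chromosome 6, 55170627 to 55174990, minus strand, 3 exons), was at 29, 60.4 and 84.9 CPM, 49.8, 80.2 and 22 CPM, 116, 86.3 and 117 CPM, and 33.1, 7.44 and 14.2 CPM. Here the aged controls were above all other libraries, and Adult control 1 and Adult burn 3 lay within the range of Aged burn.

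**Figure D1:**
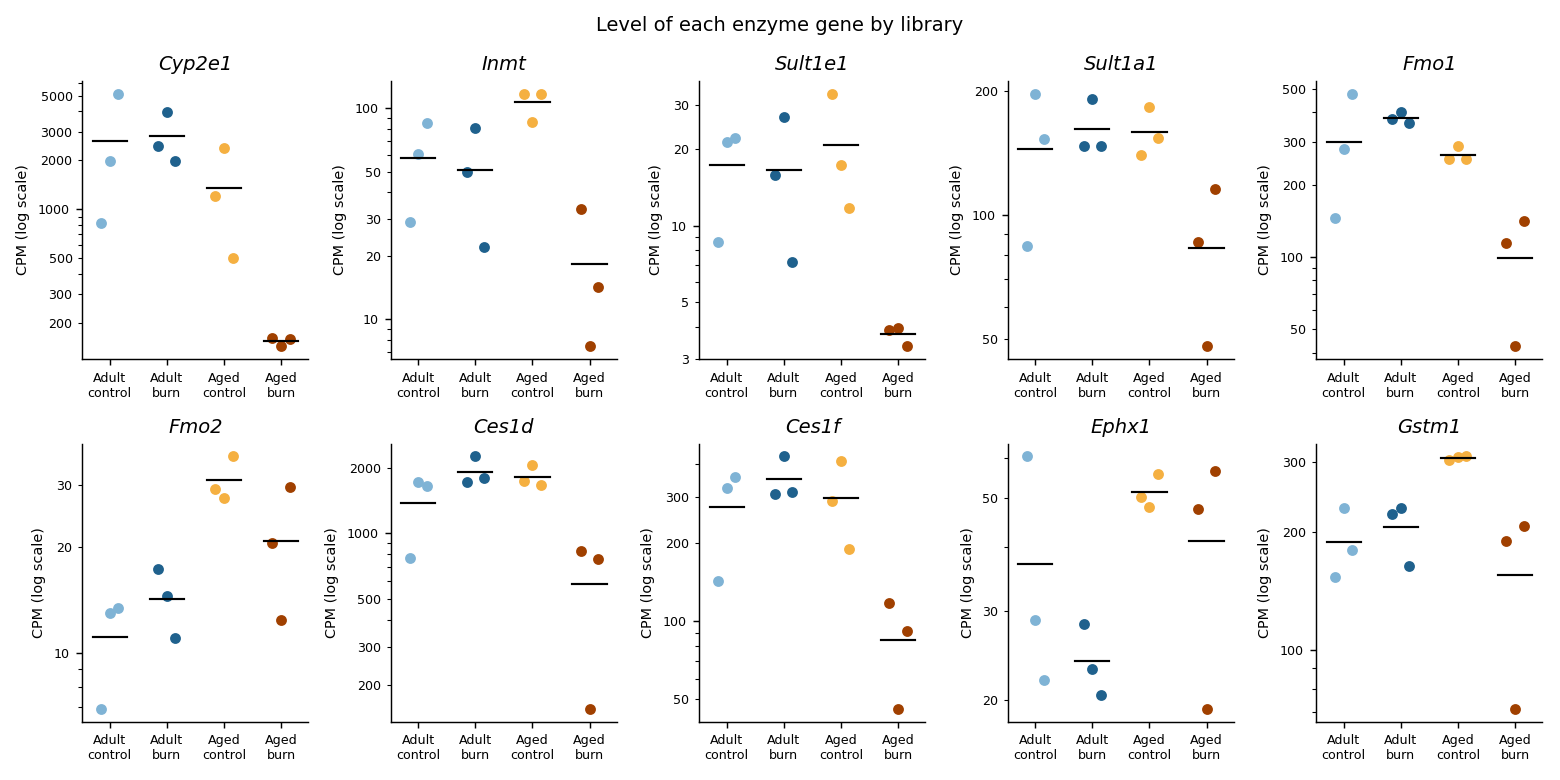
Level of each of the 10 enzyme genes in CPM (log axis, its range set per gene) in the 4 groups; each dot is 1 library and each bar the mean of 3. The 3 Aged burn dots lie below all others for Cyp2e1, Fmo1, Ces1f and Sult1e1, while for Fmo2 and Ephx1 they overlap the aged controls.

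The first comparison asked how adult fat responded to burn, in libraries that did not enter the choice of genes. None of the 10 genes passed the test (edgeR's quasi-likelihood test, adjusted p under 0.05): 0 were called higher and 0 lower, against 0.0411% of 14600 genes called, all 6 of them higher (0% lower). All 10 genes passed the filter on low counts, and 0 reached an unadjusted p under 0.05, against 4.37% of all genes. DESeq2 also called 0. In each of the 10 genes the burned and control libraries overlapped, where 3.4% of all genes had groups that did not overlap with burn lower and 6.78% with burn higher. Log2 fold changes ran from -0.64 (Ephx1) to 0.47 (Ces1d), with a median of 0.14 beside -0.04 over all genes.

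The widths of the intervals differed by gene. Cyp2e1 had a log2 fold change of 0.08 ± 0.68 (SE) with a 95% interval from -1.55 to 1.71 (edgeR adjusted p = 0.976), the widest of the 10. Inmt (-0.20, interval -1.49 to 1.09) and Sult1e1 (-0.07, interval -1.36 to 1.22) had the next widest intervals. Gstm1 was the most tightly bounded, at 0.12 with an interval from -0.39 to 0.64. Ces1d, the gene with the largest positive value, had an interval from -0.42 to 1.36 (edgeR adjusted p = 0.788), and Ephx1 one from -1.58 to 0.29 (edgeR adjusted p = 0.788). Two-sided exact permutation tests of single genes gave p from 0.2 to 0.9, where 0.1 is the smallest that 3 against 3 libraries allow. Signs near 0 turned with Adult control 1: without it the median was -0.06, and Cyp2e1 was at -0.36, Sult1a1 at -0.13, Fmo1 at -0.02 and Gstm1 at -0.02. Without Adult control 3, 2 of the 10 genes reached an unadjusted p under 0.05 and 0 were called.

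The second comparison, burn in aged mice, is the one on which the genes were chosen, so its values are a description with no test. Cyp2e1 was 8.79-fold lower (log2 -3.14 ± 0.57 SE), at 11.4% of its control level. Inmt was 5.82-fold lower (-2.54 ± 0.53) and Sult1e1 5.54-fold lower (-2.47 ± 0.40). The carboxylesterases followed, with Ces1f 3.5-fold lower (-1.81) and Ces1d 3.11-fold lower (-1.64), then Fmo1 at 2.67-fold (-1.42), Gstm1 at 1.98-fold (-0.98) and Sult1a1 at 1.9-fold (-0.93). Fmo2 (-0.57, interval -1.32 to 0.18) and Ephx1 (-0.32, interval -1.21 to 0.57) had the smallest differences. The median of the 10 was -1.53, beside -0.01 over all genes. The groups were apart, with burn lower, in 8 of the 10 genes (24.3% of 15132 genes lower and 26.3% higher), the exceptions being Fmo2 and Ephx1.

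The median of the 10 genes depended most on 1 library. Without Aged burn 2 it was -1.12, and leaving out any other single library of the comparison kept it between -1.82 and -1.45. Over all alternatives tried, Cyp2e1 stayed between -3.54 and -2.48, Inmt between -3.29 and -2.16 and Sult1e1 between -2.76 and -1.97, while Ephx1 ran from -0.63 to 0.02. For Cyp2e1 and Sult1e1 the spread lay in the aged controls rather than in Aged burn 2. Cyp2e1 was at 499 to 2370 CPM there and 143 to 160 CPM after burn, and Sult1e1 at 11.7 to 33.1 and 3.35 to 3.96 CPM. In bulk tissue, fewer cells of a type and less RNA per cell cannot be told apart. Macrophage markers moved in the other direction: 12 of 14 rose after burn in aged mice (edgeR), their summed level going from 597 to 1150 CPM in the controls to 4330 to 18400 CPM, and all 8 markers of dividing cells rose. Their part in the enzyme genes' levels was not tested.

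**Figure D2:**
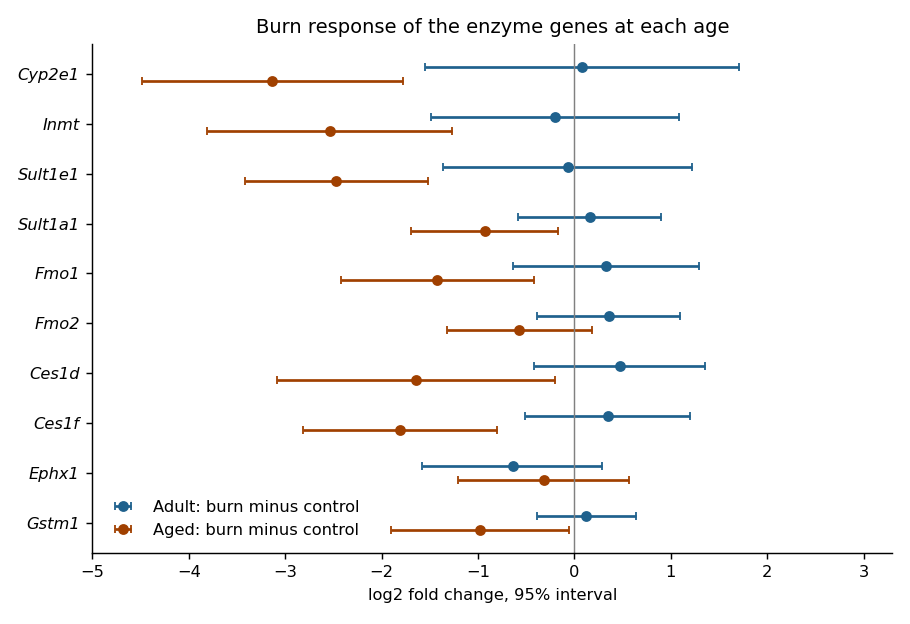
Log2 fold change of burned against control libraries for each enzyme gene, in adult (blue) and aged (brown) mice; points are edgeR estimates and bars 95% intervals, 3 libraries per group. All 10 adult intervals include 0, and the aged estimates, on which the genes were chosen, run from -3.14 for Cyp2e1 to -0.32 for Ephx1. Because of that choice the aged intervals are a description, and whether they include 0 is not a test.

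The third comparison set the burn responses of the ages against each other. It shares the burned aged libraries with the choice of genes, so it is again a description. The difference (aged minus adult response) was negative in 9 of the 10 genes, beside 47.6% of all genes. Its median was -1.93 beside 0.05 over all genes, of which 11.9% were called (9.64% higher, 2.22% lower). Cyp2e1 had the largest difference (-3.22 ± 0.94 SE), then Sult1e1 (-2.41), Inmt (-2.35), Ces1f (-2.16), Ces1d (-2.12) and Fmo1 (-1.75). Gstm1 (-1.11), Sult1a1 (-1.09) and Fmo2 (-0.94) followed. Ephx1 stood apart at 0.31 ± 0.58, and at -0.23 without Adult control 1, where its level was highest. The burned mice of the ages also differ in burn size, 30% against 20% of the body surface, with the smaller burn in the aged mice.

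The fourth comparison, aged against adult controls, shares the aged controls with the choice of genes and is given as values. Fmo2 was at 31.1 ± 4.57 CPM in aged and 11.1 ± 3.64 CPM in adult controls (log2 1.49 ± 0.34 SE). Inmt was at 106 ± 17.4 against 58.1 ± 28 CPM (0.87 ± 0.58) and Gstm1 at 308 ± 3 against 188 ± 39 CPM (0.71 ± 0.33). These 3 genes had aged controls above all adult controls, and 0 of the 10 had them all below, where 17.4% and 15.5% of 15553 genes did. Of all genes 0.424% were called (0.238% higher, 0.186% lower). Cyp2e1 (-0.96 ± 0.65) and Fmo1 (-0.18) were the only ones of the 10 with a negative value, and Ces1d (0.40), Ephx1 (0.47), Sult1e1 (0.26), Sult1a1 (0.14) and Ces1f (0.11) lay within the spread of their groups. Adult control 1 weighed on these values too: without it the median of the 10 genes was 0.01 in place of 0.33.

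Per kilobase of exon, which allows levels to be compared between genes, Cyp2e1 led in Adult control (1440 ± 1220 CPM per kb) and Adult burn (1520 ± 572). Ces1d was next (689 ± 264 and 959 ± 146). Both differences of means were within the spread between libraries, but within each single adult library Cyp2e1 was above Ces1d per kilobase. In Aged control Ces1d led at 908 ± 105 CPM per kb, beside 736 ± 513 for Cyp2e1, a difference within their spread. In Aged burn the means of Ces1d (291 ± 186) and Gstm1 (114 ± 53.8) exceeded that of Cyp2e1 (83.7 ± 5.33), with Gstm1 and Cyp2e1 within their spread. In the other 3 groups the mean of Cyp2e1 was higher than that of Gstm1. In Aged burn 2 Ces1d and Cyp2e1 were close, at 155 and 143 CPM over 2004 and 1839 bases of exon. At the low end, Fmo2 had the lowest level in the 3 groups other than Aged burn (2.51 to 7.03 CPM per kb), and Sult1e1 had it in Aged burn (3 ± 0.267).

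Most of these genes varied together across the 12 libraries. Over the 45 pairs the Pearson correlation of log2 levels had a median of 0.72 and ran from -0.38 (Cyp2e1 with Ephx1) to 0.95 (Sult1a1 with Ces1d). These points share library depth and tissue makeup and the groups on which the genes were chosen, so they describe the libraries only. Ephx1 and Fmo2 were set off from most of the rest, though less from Gstm1. Fmo2 correlated at -0.24 with Cyp2e1, 0.07 with its neighbour Fmo1, 0.39 with Inmt and 0.64 with Gstm1. Ephx1 correlated at -0.15 with Fmo1 and 0.51 with Gstm1. The neighbouring carboxylesterases correlated at 0.94.

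The level of adipocyte transcripts also differed between libraries, and it moved with the enzyme genes. The 20 adipocyte markers, none of them at 0 in any library, summed to 94100 to 105000 CPM in aged controls and 21200 to 62200 CPM after burn. The difference in mean log2 level was -1.37. The aged groups were apart, with burn lower, for every marker except Lep (24.3% of all genes). By edgeR 1 of the 20 was called lower (3.03% of all genes). In adults the markers summed to 48900 to 119000 CPM and 113000 to 115000 CPM, a difference of 0.38 with 0 called. Adult control 1 had the lowest adipocyte level among adult libraries (mean log2 CPM 10.34, the others 11.31 to 11.47) and also the lowest mean level of the 10 enzyme genes (6.39, the others 6.82 to 7.54). Among burned aged libraries, Aged burn 2 was the lowest on both scales (8.92 and 4.99).

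**Figure D3:**
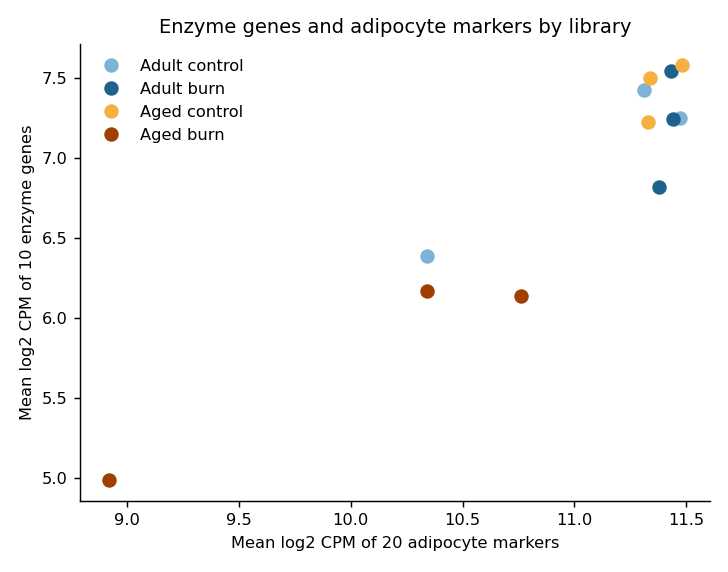
Mean log2 CPM of the 10 enzyme genes against that of 20 adipocyte markers; each point is 1 of 12 libraries, coloured by group. The 3 Aged burn libraries and Adult control 1 (6.39) lie low on both axes, and Aged burn 2 (4.99) is the lowest on both.

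The 10 genes were also expressed relative to the mean of the adipocyte markers. This subtracts 1 value per library, so in aged mice the markers' own difference of -1.37 was taken from every gene. The order of the genes' differences could therefore not change. Cyp2e1 and Inmt had the lowest values after burn in aged mice on both scales, -1.49 and -1.42 beside -2.87 and -2.79 on the plain log2 scale of group means. Sult1e1 was at -0.97 (plain -2.34), Ces1d at -0.60 (plain -1.97), Ces1f at -0.47 (plain -1.84) and Fmo1 at -0.22 (plain -1.59). Sult1a1 (0.36), Fmo2 (0.72), Ephx1 (0.91) and Gstm1 (0.24) had the opposite sign on this scale, since their plain differences were smaller than that of the markers. Cyp2e1, Sult1e1 and Ces1f overlapped between aged groups on the relative scale, while Inmt, Fmo1 and Ces1d were lower in all 3 burned libraries and Sult1a1, Fmo2 and Ephx1 higher in all 3.

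Over all genes, this scaling left 0.634% lower and 81.3% higher without overlap. The median of the 10 genes went from -1.72 to -0.34 in aged mice and from 0.32 to -0.06 in adults. For Fmo1 the relative levels were close: -3.34, -3.31 and -3.33 in aged controls, and -3.50, -3.51 and -3.62 after burn, including Aged burn 2, where the plain level was 42.5 CPM. For Cyp2e1 they were -1.11, -0.27 and -2.36 in aged controls and -3.02, -1.76 and -3.45 after burn. Whether fewer adipocytes, or less of these transcripts in each, gave the lower levels was not tested.

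**Figure D4:**
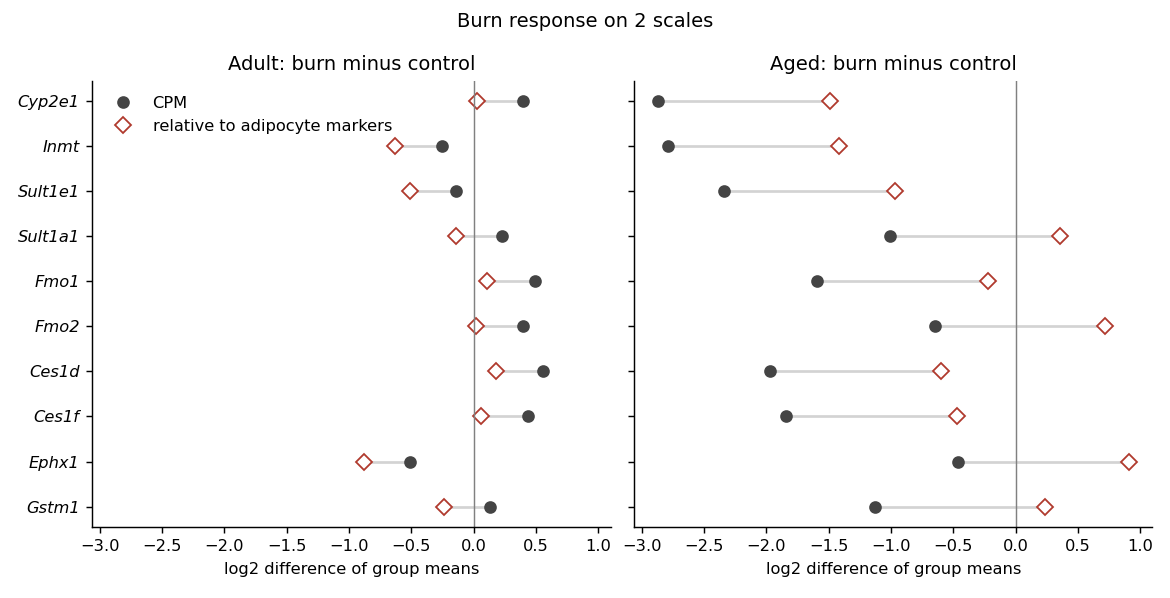
Log2 difference between burned and control group means for each enzyme gene, in adult (left) and aged mice (right), as CPM (filled) and relative to the mean of 20 adipocyte markers (open). In aged mice the markers' own difference of -1.37 separates each pair of points, and Sult1a1, Fmo2, Ephx1 and Gstm1 change sign.

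Some relatives of these genes lie in the same chromosomal clusters, and those outside the Gstm1 cluster that are given here had low levels. Beside Fmo1 and Fmo2, Fmo4 was at 1.55 ± 1.1, 1.5 ± 0.43, 1.59 ± 0.933 and 0.526 ± 0.356 CPM in the 4 groups (burn in aged mice: log2 -1.59, edgeR adjusted p = 0.134). Of the carboxylesterases beside Ces1d and Ces1f, the highest was Ces1e at 0.299 CPM. Neither neighbour of Sult1e1, Sult1b1 and Sult1d1, exceeded 0.0192 CPM on average.

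Beside Gstm1, by contrast, 5 more genes of the mu class were expressed. After burn in aged mice Gstm5 fell from 35.2 ± 1.59 to 22.6 ± 4.39 CPM (log2 -0.64, edgeR adjusted p = 0.0471). Gstm2 was at 108 ± 12 and 65.5 ± 19.9 CPM (-0.73, adjusted p = 0.0838) and Gstm4 at 28.5 ± 4.97 and 17.2 ± 5.22 CPM (-0.72, adjusted p = 0.099), by the same edgeR test. Gstm6 (-1.01) and Gstm7 (-0.72) had edgeR adjusted p of 0.247 and 0.309. All 6 tested cluster relatives had negative values in aged mice (median -0.73), beside 50.8% of all genes, and 1 of them passed. In adults 0 of 6 passed, with a median of 0.24.

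The other genes of the pathway were followed in 12 lists of 278 genes, 276 of them in the tables, that leave out the 10. In adult mice 0 of 155 tested were called by edgeR after burn (6 at an unadjusted p under 0.05, and 1 called by DESeq2), with a median log2 of 0.10. The most abundant did not pass, among them Aldh2, the mitochondrial aldehyde dehydrogenase (1080 ± 329 and 1280 ± 124 CPM), Mgst1, a microsomal glutathione transferase (923 ± 549 and 1120 ± 84.6 CPM), and Ephx2, the soluble epoxide hydrolase (591 ± 332 and 840 ± 118 CPM). Por, the reductase that feeds electrons to every microsomal P450, was at 403 ± 168 and 435 ± 42 CPM.

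In aged mice 26 of 158 were called, 12 higher and 14 lower. That is 16.5%, close to the 16.7% of all genes, with 7.59% higher and 8.86% lower beside 13.7% and 3.03% of all genes. Of 7 tested genes of sulfation 2 were called. Papss1 and Papss2, which make the sulfate donor of Sult1e1 and Sult1a1, fell from 71 ± 3.27 to 51 ± 5.49 CPM (log2 -0.48, edgeR adjusted p = 0.0444) and from 117 ± 11.1 to 63.9 ± 19.6 CPM (-0.87, adjusted p = 0.049). Of 9 electron donors, Cyb5a, the cytochrome b5 that assists P450s, fell from 555 ± 54.7 to 286 ± 79.3 CPM (-0.95, edgeR adjusted p = 0.0476) and the reductase Cyb5r4 rose (1.10). The other 7 did not pass, Por being at 633 ± 121 and 329 ± 99 CPM (-0.94, edgeR adjusted p = 0.0691). Neither of the 2 tested flavin monooxygenases was called by edgeR (0 at an unadjusted p under 0.05), Fmo5 being at 64.7 ± 6.92 and 32.7 ± 17.8 CPM (-0.98, adjusted p = 0.144), nor was the 1 tested carboxylesterase, Ces2g, at 6.75 ± 1.99 and 8.08 ± 1.49 CPM (0.26, adjusted p = 0.502).

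Of 9 tested methyltransferases 3 were called. Nnmt, which methylates nicotinamide, fell from 256 ± 31.8 to 129 ± 33.4 CPM (-0.99, edgeR adjusted p = 0.0319), and Hnmt, which methylates histamine, from 57.3 ± 5.81 to 32.8 ± 5.99 CPM (-0.80, adjusted p = 0.0265). As3mt, the arsenite methyltransferase, rose from 6.33 ± 1.24 to 16.2 ± 4.57 CPM (1.36, edgeR adjusted p = 0.0204). Of 20 other glutathione S-transferases tested, Gsta4, which handles the lipid aldehyde 4-hydroxynonenal, fell from 49.3, 49.6 and 47.8 CPM to 19.1, 9.32 and 16.4 CPM (log2 -1.71, edgeR adjusted p = 0.011) and Gstm5 also fell. Hpgds, a transferase of this family that makes prostaglandin D2 and is known from immune cells, rose from 11.7, 5.39 and 7.33 CPM to 96.3, 114 and 52.2 CPM (log2 3.43, adjusted p = 0.0064), beside the macrophage markers given above. The remaining 17 did not pass, and 18 of the 20 had negative values (median -0.85), beside 50.8% of all genes.

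Of 39 tested enzymes of alcohols, aldehydes, ketones and quinones, 3 rose and 4 fell. Aldh2 fell from 1180, 1450 and 1120 CPM to 700, 449 and 585 CPM (log2 -1.11, edgeR adjusted p = 0.0332), and Maob, a monoamine oxidase, from 89.7, 103 and 90 CPM to 34.5, 16.8 and 46.3 CPM (-1.54, adjusted p = 0.033). Aldh3b2 (-1.11) and Aldh7a1 (-0.42) also fell. Aldh1b1 (log2 3.20), Aldh3b1 (1.89) and Akr1b8, an aldo-keto reductase (1.48), rose. Of 19 tested P450s, Cyp2s1 (4.27) and Cyp4f18 (2.50) rose and Cyp4f39 (-1.63) fell. The glucuronosyltransferase Ugt1a7c (1.76) was the 1 call among 6 genes of glucuronidation. Of 16 transporters, Abcc3 (0.89), Slco2a1 (1.08) and Slco4a1 (2.29) rose and Slc22a3 (-1.21) fell, and of 7 epoxide hydrolases and paraoxonases Pon3, a lactonase, fell (-0.73). Cyp2s1 went from 0.489, 0.371 and 0.175 CPM to 13.9, 5.08 and 0.838 CPM, a wide spread, and Slco4a1 stayed under 1 CPM on average.

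None of the 23 tested regulators of these genes was called in aged mice by edgeR (10 at an unadjusted p under 0.05): Cebpa was at 1350 ± 115 and 629 ± 320 CPM (log2 -1.10, edgeR adjusted p = 0.118) and Nr3c1, the glucocorticoid receptor, at 292 ± 18.2 and 205 ± 35.1 CPM (-0.51, adjusted p = 0.0851). These calls rest on few libraries. Without Aged control 3 no gene of the pathway lists was called (54 at an unadjusted p under 0.05), without Aged control 2 it was 1, without Aged control 1 it was 3 and without Aged burn 1 it was 5, while without Aged burn 2 it was 50 and without Aged burn 3 it was 67. DESeq2 called 70.

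**Figure D5:**
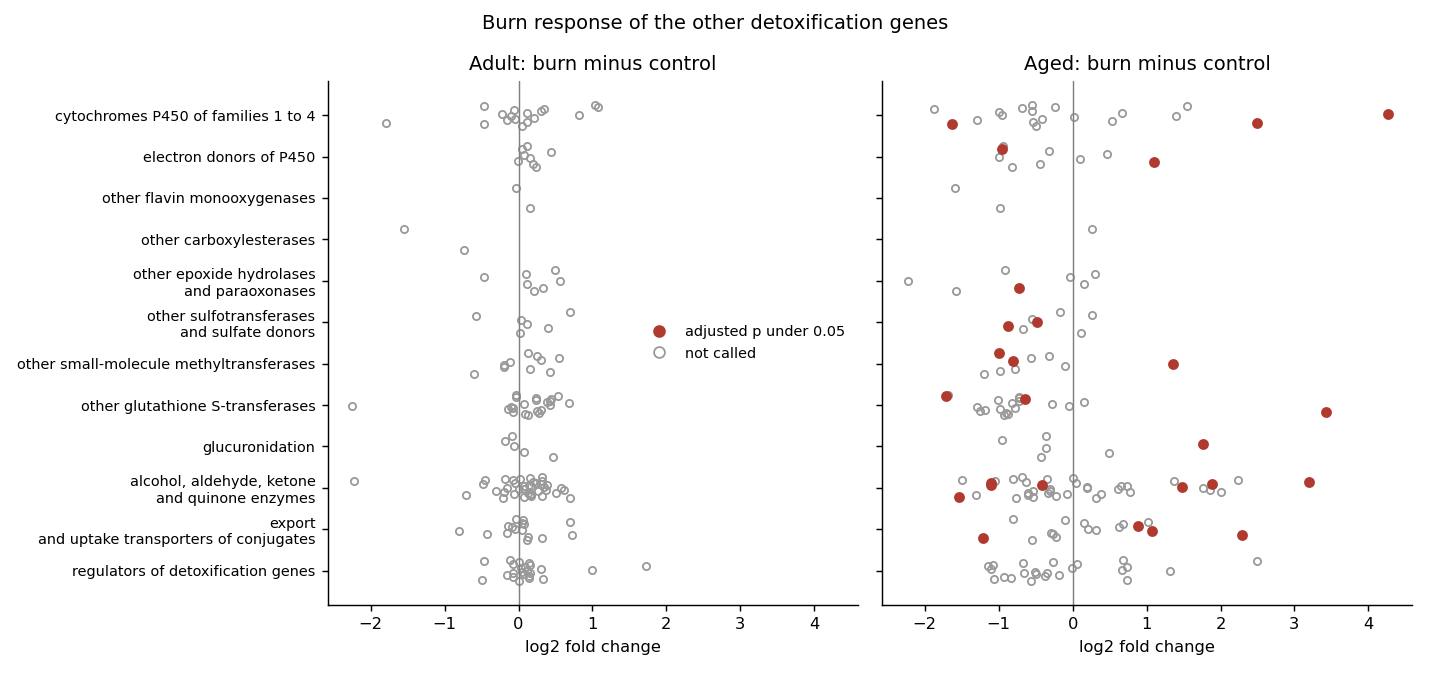
Log2 fold change after burn of the other detoxification genes by list, in adult (left) and aged mice (right); each dot is 1 tested gene, filled where edgeR's adjusted p was under 0.05. No dot is filled in adults, and in aged mice 12 filled dots lie above 0 and 14 below.

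The burn responses of the ages differed for 14 of 165 genes of the lists, 8 higher and 6 lower in aged mice (8.48%, beside 11.9% of all genes). Gsta4 was at 44.1 ± 16.8 and 64 ± 6.4 CPM in adult and 48.9 ± 0.984 and 14.9 ± 5.04 CPM in aged mice, control and burn (difference of responses -2.25 ± 0.43 SE, edgeR adjusted p = 0.0172). Ppara, the fatty acid receptor that controls oxidation genes, was at 24.5, 43.9 and 38.6 CPM in Adult control and 140, 102 and 113 CPM in Adult burn, but at 25.8, 45.4 and 21.3 CPM in Aged control and 14.7, 5.39 and 21.6 CPM in Aged burn (difference -2.88 ± 0.63, adjusted p = 0.0233). Its groups were apart in adults with burn higher, but edgeR called neither age on its own (log2 1.73, adjusted p = 0.269 in adults and -1.15, adjusted p = 0.154 in aged mice). Markers of brown and beige adipocytes moved with it in adults: 9 markers summed to 220 to 637 CPM in Adult control and 2250 to 2840 CPM in Adult burn, with 3 of 9 called higher by edgeR and Ucp1 at 11.6 to 22.9 and 1010 to 1190 CPM. In aged mice they summed to 108 to 174 CPM in controls and 58.9 to 142 CPM after burn. Of the 8 tested there, 4 were called higher and 2 lower. Ucp1 was at 0 to 0.48 CPM in Aged control and 7.94 to 30.5 CPM in Aged burn. The part of these markers in the level of Ppara was not tested. Maob (-1.86), Aldh2 (-1.36), Gsto2 (-1.51) and Pon1, a paraoxonase (-2.79), likewise had lower responses in aged mice.

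Hpgds (3.50), Aldh3b1 (2.37), As3mt (1.45), Slco2a1 (1.88), Aldh1b1 (5.41), Cyp4f18 (4.27), Cyp1b1 (2.00) and Cyp2s1 (5.38) had higher ones. For Cyp4f18, Aldh1b1 and Cyp2s1 the library with lymphocyte transcripts, Adult control 1, was the highest adult library (38.2, 4.29 and 2.56 CPM, against at most 7.11, 1.27 and 0.64 CPM). Without it the differences were 2.70, 4.10 and 3.24 in that order, Cyp2s1 was no longer called (edgeR adjusted p = 0.153) and 6 genes of the lists were. None was called without Adult burn 1, Adult burn 2, Aged control 2 or Aged control 3, nor without Adult control 1 and Adult burn 1 together (52, 48, 46, 53 and 37 at an unadjusted p under 0.05). The count was 1, 2, 4 and 6 without Aged control 1, Aged burn 1, Aged burn 2 and Adult burn 3, and 29, 23 and 42 without Adult control 2, Adult control 3 and Aged burn 3.

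Between control mice of the ages, 1 of 165 genes of the lists was called: Abcb1b, a drug exporter, at 10.7, 12.1 and 11.6 CPM in adult and 23.5, 25.6 and 22.2 CPM in aged controls (log2 1.05 ± 0.15 SE, edgeR adjusted p = 0.0245). It was also at 12.8, 10.8 and 12.3 CPM in Adult burn and 24.2, 18.6 and 23.5 CPM in Aged burn, so that all 6 aged libraries exceeded all 6 adult ones. The call was lost without any 1 aged control, Adult control 3, Adult burn 1 or Adult burn 2.

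The genes whose pattern over the 12 libraries was most like that of Cyp2e1, by Pearson correlation of log2(CPM + 1), were Nos3 (0.975), Angpt1 (0.965), Il15ra (0.963), Abcc9 (0.961) and Rassf6 (0.961). Nos3, the endothelial nitric oxide synthase, was at 94.5, 108, 75 and 34 CPM on average in Adult control, Adult burn, Aged control and Aged burn, a narrower range than that of Cyp2e1. Most like the mean of the 10 standardised genes were Nrbp2 (0.983), Sh3glb2 (0.977), Prodh (0.975), Pm20d2 (0.974) and Pard3b (0.972). Prodh, the mitochondrial proline dehydrogenase, was at 45.9, 55.2, 74.6 and 24.7 CPM in the same order. These likenesses are the highest among all genes of at least 5 CPM on average in a group and share the libraries' depth and tissue makeup.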

How the data were processed

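Gene counts of 12 poly(A) RNA libraries of mouse adipose tissue, 3 per group, were deposited by the authors as raw counts, adult and aged libraries apart. Per the labels' protocols, a directional kit followed Trizol extraction. The submitters' processing notes name FastQC, MultiQC, cutadapt, HISAT2, featureCounts and mm10, without versions, and the strand setting is not given in the sources used here. A symbol of RefSeq's GRCm38.p6 table was found for 25275 of the 27179 Entrez identifiers. The rest made up 0.366% to 0.76% of the counts.

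All genes were tested with edgeR 4.0.16 in R 4.3.3, using TMM scaling, the filter filterByExpr, a quasi-likelihood F test and Benjamini-Hochberg adjustment (threshold 0.05): burn within each age on its 6 libraries, and the difference of responses and the age difference of controls on all 12. A standard error is the absolute log2 fold change over the square root of F. Levels relative to adipocytes are log2 CPM minus the mean log2 CPM of 20 markers. The 10 genes, the pathway and marker lists and the alternatives were chosen with earlier results of these data known. By rule the text names the 10 genes, up to 3 called genes per list and direction or else its 2 most abundant tested genes, cluster relatives of at least 1 CPM and the 5 genes most like each pattern. Aldh7a1 falls outside this rule and was named after its value was seen, to complete a count, as were Ephx2, Por and Ppara in comparisons where the rule does not name them. Coordinates and exons are of RefSeq and GENCODE M21 on GRCm38.

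Alternatives were 2 other scalings, 2 other filters, DESeq2 1.42.0, limma-voom (limma 3.58.1), a block for the replicate number, 12 or 6 libraries in the fit, and leaving out each library. On simulated counts of each comparison with 100 genes changed 2-fold and 100 changed 4-fold, 6 and 51 were recovered for burn in adults, 9 and 72 for burn in aged mice, 1 and 30 for the difference of responses and 20 and 63 for age. Counts of any 2 libraries of 1 group differed by more than sampling noise. One gene is not reported here.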

Additional observations from a re-analysis of the deposited data

Results flagged for a closer look

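Some genes of the pathway lists had burn responses that differed between the ages by a test of the difference itself (edgeR, over all 12 libraries). In log2 units, aged minus adult, these differences were 2.00 for Cyp1b1, 5.38 for Cyp2s1, 4.27 for Cyp4f18, 1.45 for As3mt, 3.50 for Hpgds, 5.41 for Aldh1b1, 2.37 for Aldh3b1 and 1.88 for Slco2a1. They were -2.79 for Pon1, -2.25 for Gsta4, -1.51 for Gsto2, -1.36 for Aldh2, -1.86 for Maob and -2.88 for Ppara. Without Adult control 1, the highest adult library for Cyp2s1, Cyp4f18 and Aldh1b1, they were 3.24 for Cyp2s1 (edgeR adjusted p = 0.153), 2.70 for Cyp4f18 (adjusted p = 0.0442) and 4.10 for Aldh1b1 (adjusted p = 0.0487). None of the genes of the lists was called by edgeR without Adult burn 1, Adult burn 2, Aged control 2 or Aged control 3 (52, 48, 46 and 53 at an unadjusted p under 0.05). Burn size differed with age, 30% against 20% of the body surface, and each age had its own deposited table. The parts of age, burn size and table cannot be told apart.

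For 5 of the chosen enzymes all burned adult libraries lay above the mean of their controls on the log2(CPM + 1) scale and all burned aged libraries below theirs: Sult1a1 (-1.09), Fmo1 (-1.75), Fmo2 (-0.94), Ces1d (-2.12) and Ces1f (-2.16). For Fmo2 this turns on the scale, since Adult burn 3 was at 11 CPM and the plain mean of the adult controls was 11.1 CPM. The differences of these genes were not tested, since the genes were chosen on their aged libraries. The mean of the adult controls includes Adult control 1, the lowest library of that group for each of these 5 genes. How many of all genes had this pattern was not counted, so it is not shown to be particular to these enzymes. The mean log2 level of the adipocyte markers also differed upward in adults (0.38) and downward in aged mice (-1.37).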

How the results depend on the processing

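Calls depended on the libraries and the tool. By edgeR 6 genes were called for burn in adults, 2534 for burn in aged mice, 1845 for the difference of responses and 66 for age in controls. Leaving out 1 library gave 0 to 5, 0 to 5743, 0 to 4039 and 0 to 2011 in that order (231 to 1714, 3892 to 7949, 4255 to 6680 and 2550 to 5100 at an unadjusted p under 0.05). DESeq2 called 62, 5011, 3783 and 2184, and limma-voom 833 for the difference of responses. All 12 libraries in 1 model gave 14 for burn in adults, and the 6 control libraries alone 0 for age (3599 at an unadjusted p under 0.05). Of the pathway lists 0, 26, 14 and 1 genes were called, and 0 to 0, 0 to 67, 0 to 42 and 0 to 19 with 1 library left out. DESeq2 called 1, 70, 47 and 23 of them. For the difference of responses it was 9 with no filter on low counts and 7 by limma-voom, and for age 0 in the 6 controls alone (42 at an unadjusted p under 0.05). None of the 10 enzyme genes was called in adults under any alternative tried (0 to 2 at an unadjusted p under 0.05). The block on replicate numbers is given only here: same-numbered libraries did not deviate together (correlations -0.384 to 0.257). With the replicate block 0, 917, 413 and 0 genes were called (455, 4631, 4639 and 3257 at an unadjusted p under 0.05), and 0, 5, 1 and 0 of the lists. An alternative chosen after seeing the data dropped both Adult burn 1 and Adult control 1 and gave 0 for burn in adults, 0 for the difference and 18 for age (278, 3450 and 2910 at an unadjusted p under 0.05), and 0 of the lists in each. The cause of these changes was not tested.

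Signs turned for uncalled values of burn in adults. With 1 library left out the log2 fold changes ranged as follows: Cyp2e1 -0.36 to 1, Sult1a1 -0.13 to 0.44, Fmo1 -0.02 to 0.83, Gstm1 -0.02 to 0.29, Cyp4v3 -0.16 to 0.45, Por -0.12 to 0.49, Cyb5a -0.27 to 0.38, Fmo5 -0.02 to 0.41, Bche -0.07 to 0.57, Papss2 -0.08 to 0.31, Mgst1 -0.09 to 0.82, Gstz1 -0.04 to 0.43, Akr1a1 -0.08 to 0.16, Slc22a3 -0.05 to 0.49, Nr3c1 -0.08 to 0.14, Sult1e1 -0.59 to 0.30, Gstm2 -0.24 to 0.27, Inmt -0.69 to 0.18, Cyp2f2 -0.35 to 0.30, Fmo4 -0.33 to 0.71. With both Adult burn 1 and Adult control 1 dropped they were Cyp2e1 -0.26, Sult1a1 -0.05, Fmo1 0, Fmo2 -0.05, Gstm1 -0.06, Cyp4v3 -0.15, Por -0.17, Cyb5a -0.25, Fmo5 -0.07, Bche -0.08, Papss2 -0.03, Mgst1 -0.02, Gstz1 -0.04, Ugdh -0.05, Aldh2 -0.01, Akr1a1 -0.05, Slc22a3 -0.05, Nr3c1 -0.02. Fmo4 was at 0.19 by limma-voom and 0.12 with the replicate block.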
